A study of Homo sapiens with 16 samples.

Results

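Nucleoporins, importins and exportins, with the proteins that run the Ran cycle and the mRNA export receptor NXF1, were examined as a group of 57 genes among the 8704 genes listed in the processed data. The members were chosen by name alone: symbols beginning with NUP, IPO, XPO, KPNA, KPNB or TNPO followed by a number (or by T for XPOT), plus RANBP2, TPR, RAE1, AAAS, NDC1, POM121, SEH1L, RAN, RANGAP1, RANBP1, RCC1, CSE1L and NXF1. By role they comprised 28 nucleoporins, 24 transport receptors, 4 genes of the Ran cycle and NXF1.

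The cells were HCT-116, a human colorectal cancer line, expressing the auxin receptor TIR1 from Oryza sativa under a CMV promoter and carrying a miniAID degron on endogenous DDX3X, so that indole-3-acetic acid (IAA, auxin) leads to degradation of this DEAD-box RNA helicase. They received one of 3 lentiviruses: a control (lentiCTRL), FLAG-tagged DDX3X (lentiDDX3X) or FLAG-tagged DDX3Y (lentiDDX3Y), the Y-linked paralog. The 4 conditions were lentiCTRL with DMSO, lentiCTRL with 500 µM IAA, lentiDDX3X with IAA and lentiDDX3Y with IAA, each for 48 h, and the degron line was clonal, so line and genotype cannot be told apart. Each condition had 2 ribosome profiling and 2 rRNA-depleted RNA-seq libraries, 16 in all, and every lysate was made with cycloheximide at 100 µg/ml.

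The values used were the authors' means of normalized counts over the coding sequence, 1 footprint mean and 1 RNA mean per gene, each over 4 libraries. One pair of means covered the lentiCTRL cells, DMSO and IAA together (the lentiCTRL set), and the other covered the lentiDDX3X and lentiDDX3Y cells under IAA (the complemented set). No value per replicate or per treatment was used, so the error given below is counting error only, a lower limit on the real error, and no comparison was tested. IAA against DMSO and DDX3Y against DDX3X were not analysed here. All 57 members were listed in the lentiCTRL set, where footprint means began at 10.0, and 54 in the complemented set, where they began at 20. KPNA5, NUP50 and POM121, all with lentiCTRL footprint means below 20, were the 3 listed only in the former. NUP62CL, NUP210L and KPNA7 were listed in neither. The footprint means summed to 604809 in the lentiCTRL set and 734724 in the complemented set, of which the members took 0.751% and 0.707%. Of 10 markers of colorectal epithelium, 5 were listed in both sets (EPCAM, KRT8, KRT18, CDH1 and CDX2), whereas VIL1, CDX1, KRT20, CEACAM5 and LGR5 were not. Of 10 markers of other cell types, only COL1A1 was listed, in the lentiCTRL set, at a footprint mean of 10.6.

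The nuclear pore complex is a ring-shaped channel through the nuclear envelope. Its scaffold is built from the Y complex and the inner ring, its channel is filled by nucleoporins rich in phenylalanine-glycine (FG) repeats, and filaments and a basket extend into the cytoplasm and the nucleus. Importins and exportins, collectively karyopherins, carry cargo through the FG repeats and bind or release it according to the guanine nucleotide on the small GTPase Ran. RCC1 on chromatin loads Ran with GTP and RANGAP1 in the cytoplasm triggers hydrolysis, so that Ran-GTP marks the nucleus. DDX3X acts in translation initiation, in particular on mRNAs with structured 5′ leaders.

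The main measure was the number of footprint counts per 100 RNA counts. Both counts were taken over the same coding sequence, so its length cancels. The sequences around the annotated start codons are shown for the 5 members with the fewest footprints per RNA and the 5 with the most, ranked among the 52 members with a lentiCTRL footprint mean above 20, since the start codon is where the scanning ribosome begins. They are the GENCODE v44 canonical transcripts on GRCh38, 5′ to 3′, with 9 bases before and 1 base after the ATG, which is in capitals, and each is given with the location of its gene. The 5 lowest come first.
XPOT (chr12:64404392-64451125, plus strand): acagcgaggATGg
XPO6 (chr16:28097976-28211965, minus strand): ccggccagcATGg
IPO7 (chr11:9384652-9448127, plus strand): cgcgctgcgATGg
KPNA4 (chr3:160495007-160565571, minus strand): ggcccggccATGg
RANBP2 (chr2:108719482-108785810, plus strand): ggcggcgcgATGa
The 5 highest follow.
NUP37 (chr12:102073103-102120120, minus strand): acatacaagATGa
RAE1 (chr20:57351223-57379211, plus strand): aggttcaaaATGa
KPNA6 (chr1:32108056-32176563, plus strand): ggacccgcgATGg
NUP43 (chr6:149724315-149749665, minus strand): gctttcggcATGg
NUP93 (chr16:56730118-56850286, plus strand): gcatctccaATGg

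A start context of this kind was available for 56 members. The base 3 positions before the ATG, a purine in the optimal Kozak context, was a purine in 51 of them, and the base after the ATG was G in 41. Both features were present in 37 members, and 1 member had neither. Of the printed contexts, only that of NUP93 lacks a purine at the former position, so this feature does not separate the lowest from the highest members.

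In the lentiCTRL set, the members had a median RNA mean of 1429, beside 868 for all genes, and a median footprint mean of 62.5, beside 34.1. Per kb of coding sequence the RNA means ran from 184 for NUP214 to 7406 for RAN, with a median of 562 beside 600 for all genes, and the median footprint mean was 24.97, beside 24.4. In bulk cultures such as these, fewer expressing cells and less RNA per cell cannot be told apart. The members yielded a median of 4.21 footprints per 100 RNA counts, and the median gene 4.57. On the log2 scale the median member lay at -0.12 relative to the median gene. Of the 57 members, 25 lay above the median gene and 32 below it. The 95% counting interval lay wholly above the median gene for 16 members and wholly below it for 26, where 39.6% and 39.8% of all 8657 genes did so. The members spanned a 17.6-fold range, from 0.582 footprints per 100 RNA counts for XPOT to 10.2 for NUP37.

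**Figure D1:**
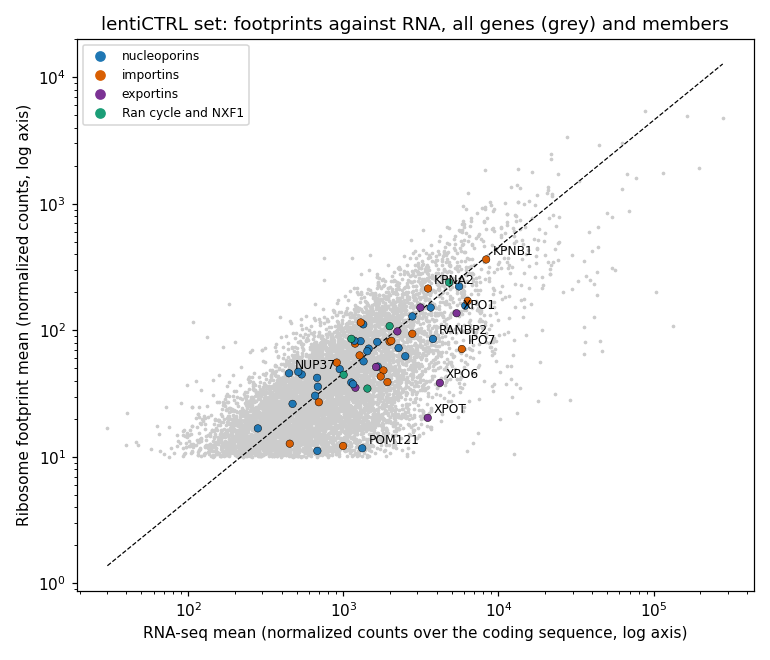
Authors' mean footprint count against authors' mean RNA count for every gene of the lentiCTRL set (grey) and the 57 members, coloured by class; both axes are logarithmic and the dashed line is the median of footprints per RNA. Members are spread on both sides of the line, with XPOT, XPO6, IPO7 and POM121 far below it and NUP37 above it, and the grey cloud ends at a footprint mean of 10.0.

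Among the listed genes, long coding sequences carried fewer footprints per RNA. The Spearman correlation of coding length with footprints per RNA was -0.54 over 8542 genes and -0.48 over the 57 members, given here as a description over genes that share libraries. In the complemented set it was -0.59 and -0.57. Genes with footprint means below 10.0, or below 20 in the complemented set, are missing. The part of this floor in the correlation, and in the reference by coding length, was not tested. The members were long, with a median coding length of 2694 nt beside 1419 nt for all genes. Set against genes in the same of 10 equally filled bins of coding length, a comparison chosen after the data had been seen, the median member lay 0.36 above on the log2 scale and 39 of 57 members were above. The position of the members relative to other genes therefore reverses with the reference, and both references are given for each role below.

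The Ran cycle genes had a median footprint density of 64.6 per kb, the highest median of any role. RAN, the GTPase itself, had the highest footprint density of all members, 369 per kb of coding sequence, from an RNA mean of 4799 and a footprint mean of 239. RCC1, the exchange factor, had 67.9 per kb, RANGAP1, the GTPase-activating protein, 61.3 per kb, and RANBP1, which assists RANGAP1 in the cytoplasm, 41.6 per kb. Footprint density ran over 8.87-fold within the role, from RANBP1 to RAN. RNA density ran over 8.30-fold, but between other genes, from 892 per kb for RCC1 to 7406 per kb for RAN. RANBP1 had an RNA density of 1714 per kb. Footprints per 100 RNA counts were 7.61 for RCC1, 5.43 for RANGAP1, 4.98 for RAN and 2.43 for RANBP1, with counting intervals that did not overlap between RANBP1 (2.05 to 2.87) and RAN (4.67 to 5.31). On the log2 scale RAN lay at 0.12 relative to the median gene and at -0.52 relative to genes of like coding length. The role had 3 of 4 genes above the median gene, with a median of 0.19, and 2 of 4 above genes of like coding length, with a median of -0.04. RAN has 9 annotated pseudogenes that carry its name, and how reads that match several copies were assigned could move its counts.

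Among the importin alpha proteins, adaptors that bind the classical nuclear localization signal, 4 of 6 lay above the median gene in footprints per RNA, and the role's median was 0.42 above it. KPNA6 had 8.91 footprints per 100 RNA counts (8.10 to 9.80), KPNA3 had 6.60, KPNA1 had 6.13 and KPNA2 had 6.09. KPNA5 and KPNA4 stood lower, at 2.82 (2.13 to 3.72) and 2.03 (1.73 to 2.38). KPNA4 and KPNA3 are close paralogs with coding sequences of the same length, 1563 nt, and RNA means of 1925 and 1191, yet the footprint mean was 39.0 for KPNA4 and 78.6 for KPNA3. KPNA2, the major adaptor in proliferating cells, had the highest density of the role, 135 per kb, and KPNA5 the lowest, 7.87 per kb. KPNA2 has 3 annotated pseudogenes and KPNA4 has 1, and the assignment of reads that match several copies could move their counts. Against genes of like coding length the role's median was 0.39 above and again 4 of 6 members were above.

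The importin beta family, which binds Ran and carries cargo directly or through importin alpha, had 1 of 11 members above the median gene in footprints per RNA, and its median lay at -0.44 on the log2 scale. IPO4, an importer of histones, was that member, at 4.98 footprints per 100 RNA counts. KPNB1, the importin beta that pairs with importin alpha, had an RNA mean of 8326 and a footprint mean of 363, giving 4.37 footprints per 100 RNA counts (4.14 to 4.60). Its footprint density was 138 per kb, the highest of the members after RAN and 32.7-fold above that of IPO13 (4.22 per kb), while the RNA density was 3168 per kb for KPNB1 and 345 per kb for IPO13.

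IPO7, an importer of ribosomal proteins and histone H1, was the second most footprint-poor of the family. It had an RNA mean of 5805, or 1864 per kb, but a footprint mean of 71.2, or 22.9 per kb, giving 1.23 footprints per 100 RNA counts (1.09 to 1.38). IPO13, which both imports and exports cargo, had 1.22 (0.923 to 1.62) from a footprint mean of 12.2, and cannot be ranked against IPO7 within counting error. IPO5, with an RNA mean of 6329, had 2.70 (2.50 to 2.91). TNPO1 has 3 annotated pseudogenes, IPO7 has 2, and IPO5, IPO8, KPNB1 and TNPO3 have 1 each, with the same limit on their counts. TNPO1 (transportin 1), the importer of hnRNP proteins, had 3.38, TNPO2, its close paralog, 4.10, and TNPO3, an importer of SR splicing factors, 2.66. Against genes of like coding length, 6 of the 11 family members were above and the median lay 0.16 above, so the low position of the family as a whole was not present with that reference, whereas IPO7 and IPO13 lay at -1.30 and -1.31.

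Of the 7 exportins, 1 lay above the median gene and the median lay at -0.64. CSE1L, which returns importin alpha to the cytoplasm, was that exportin, at 4.83 footprints per 100 RNA counts and a counting interval (4.46 to 5.24) that includes the median gene. XPO1 (CRM1), the receptor for leucine-rich export signals, had an RNA mean of 5371 and 2.54 footprints per 100 RNA counts (2.34 to 2.77). XPO5, the exporter of pre-miRNAs, had 4.40, XPO7 had 3.16 and XPO4 had 2.94.

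XPOT, which exports tRNA, and XPO6, which exports actin, were the lowest of all ranked members. Per kb, XPOT had an RNA mean of 1212, beside 1077 for CSE1L, but a footprint mean of 7.06, beside 52.1 for CSE1L. With an RNA mean of 3499 and a footprint mean of 20.4, it had 0.582 footprints per 100 RNA counts (0.468 to 0.724), or -2.97 relative to the median gene on the log2 scale. XPO6 had an RNA mean of 4189 and a footprint mean of 38.5, giving 0.919 (0.784 to 1.08). The counting intervals of XPOT and XPO6 did not overlap. XPOT has 1 annotated pseudogene. Both stayed low in the complemented set, at 0.720 and 1.56, and both stayed low against genes of like coding length, at -2.38 and -1.72 on the log2 scale. With that reference 3 of 7 exportins were above and the median lay at -0.04.

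**Figure D2:**
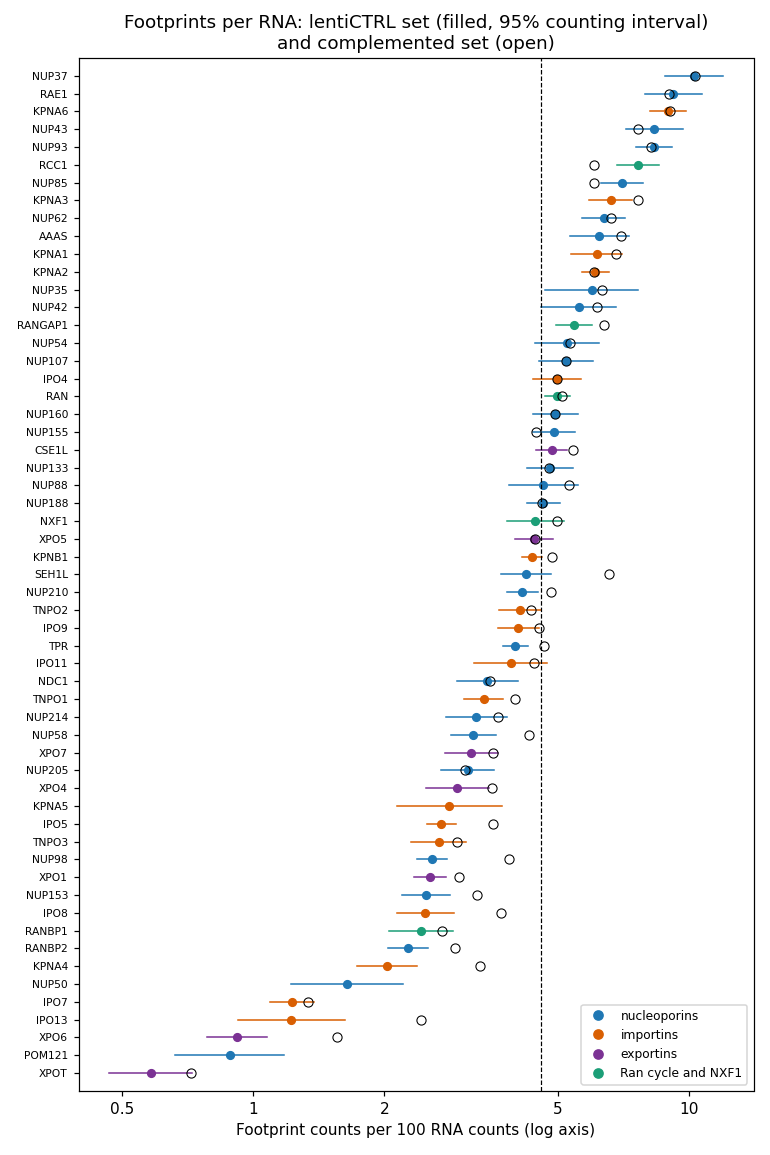
Footprint counts per 100 RNA counts on a log axis for each member in the lentiCTRL set (filled points, bars show the 95% counting interval) and in the complemented set (open points); the dashed line is the median gene of the lentiCTRL set. Exportins and beta family importins lie mostly left of the line, nucleoporins lie on both sides, and XPOT is the lowest at 0.582 and NUP37 the highest at 10.2.

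NXF1, the receptor for bulk mRNA export, sat near the median gene with 4.44 footprints per 100 RNA counts (3.82 to 5.15) and a density close to that of the median gene. It lay at -0.04 relative to the median gene on the log2 scale and at 0.15 relative to genes of like coding length.

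Of the 28 nucleoporins, 16 lay above the median gene in footprints per RNA and the median was 0.04 above it. In the complemented set 10 of 26 were above and the median was -0.14. The Y complex, the outer scaffold, had 6 of 8 members above in the lentiCTRL set, with a median of 0.15, and 4 of 8 in the complemented set, with a median of 0.01. Against genes of like coding length 7 of 8 were above in the lentiCTRL set, with a median of 0.73. NUP37 led at 10.2 (8.80 to 11.9), followed by NUP43 at 8.31 and NUP85 at 7.02. NUP107, NUP160 and NUP133 lay between 4.79 and 5.22. SEH1L had 4.21 and NUP98 had 2.57 (2.37 to 2.78). The NUP98 precursor is cut into Nup98, an FG nucleoporin, and Nup96, which is the Y complex subunit, and one mean covers both.

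Subunits of one assembly can be compared by footprint density. Within the Y complex the density ran from 17.1 per kb for NUP160 to 46.8 per kb for NUP37, a 2.74-fold range. RNA density ran over 3.31-fold between other subunits, from 342 per kb for NUP107 to 1131 per kb for NUP98. NUP160, NUP107 and NUP133 lay within 17.1 to 19.7 per kb, and NUP43, NUP85, SEH1L and NUP37 within 39.3 to 46.8 per kb. NUP98 stood between these, at 29.0 per kb. The 4 subunits with the shortest coding sequences had the 4 highest densities.

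In the inner ring, 4 of 5 members lay above the median gene in the lentiCTRL set, with a median of 0.10, but 2 of 5 did in the complemented set, where the median was -0.28. All 5 were above genes of like coding length in the lentiCTRL set, with a median of 1.04, and 4 of 5 in the complemented set, with a median of 0.64. NUP93, a scaffold linker, had 8.30 footprints per 100 RNA counts (7.54 to 9.14) and 45.4 per kb. NUP188, NUP155 and NUP35 had 24.6, 19.4 and 17.2 per kb. NUP205, the paralog of NUP188, had 8.58 per kb and 3.10 footprints per 100 RNA counts (2.70 to 3.56). The range of footprint density was 5.30-fold, and that of RNA density 1.98-fold.

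The central channel members NUP62, NUP58 and NUP54, which form 1 subcomplex, had 52.5, 40.4 and 23.6 footprints per kb. Footprints per 100 RNA counts were 6.36 for NUP62, 5.24 for NUP54 and 3.20 for NUP58. NUP58 had the highest RNA density of the 3, at 1263 per kb beside 825 for NUP62, and a lower footprint density than NUP62. In the lentiCTRL set 2 of 3 lay above the median gene, with a median of 0.19, and 2 of 3 above genes of like coding length, with a median of 0.16. In the complemented set 1 of 3 lay above the median gene, with a median of -0.07.

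On the cytoplasmic face, 4 of 6 members lay above the median gene in the lentiCTRL set, with a median of 0.15, and 3 of 6 in the complemented set, with a median of 0.03. All 6 were above genes of like coding length in the lentiCTRL set, with a median of 0.39. RAE1, an mRNA export factor, had 9.19 footprints per 100 RNA counts (7.91 to 10.7) and 42.6 per kb. AAAS had 6.22 footprints per 100 RNA counts, NUP42 had 5.58, NUP88 had 4.63 and NUP214 had 3.25. RANBP2, the large filament protein that binds Ran, had 2.26 (2.03 to 2.52) and 8.84 per kb from a coding sequence of 9672 nt, the longest of the members. It lay at -1.02 relative to the median gene on the log2 scale and at 0.01 relative to genes of like coding length. NUP214 had the lowest density of the role, 5.99 per kb, 7.12-fold below RAE1, where RNA density ranged over 2.52-fold. No RGPD gene, the near-identical relatives of RANBP2, was listed. Reads that match RANBP2 and such a relative may still have been lost or split, which could move its counts.

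In the nuclear basket and the pore membrane all 6 members lay below the median gene, with medians of -0.88 and -0.41. Against genes of like coding length 3 of the 6 were above, namely TPR at 0.83, NUP153 at 0.15 and NUP210 at 0.88, and the medians were 0.15 for the basket and -0.22 for the membrane proteins. TPR, the basket scaffold, had 3.99 footprints per 100 RNA counts (3.73 to 4.27) and 31.4 per kb from an RNA mean of 5574. NUP153 had 2.49 and NUP50 had 1.64 (1.22 to 2.20), the latter from a footprint mean of 11.2. Among the membrane proteins NUP210 had 4.14, NDC1 had 3.44 and POM121 had 0.884 (0.663 to 1.18). POM121 rested on a footprint mean of 11.7 and had 3.12 footprints per kb, the lowest density of all members. Its near-identical relative POM121C had 1.36 footprints per 100 RNA counts, and reads that match both may have been lost or split between them.

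**Figure D3:**
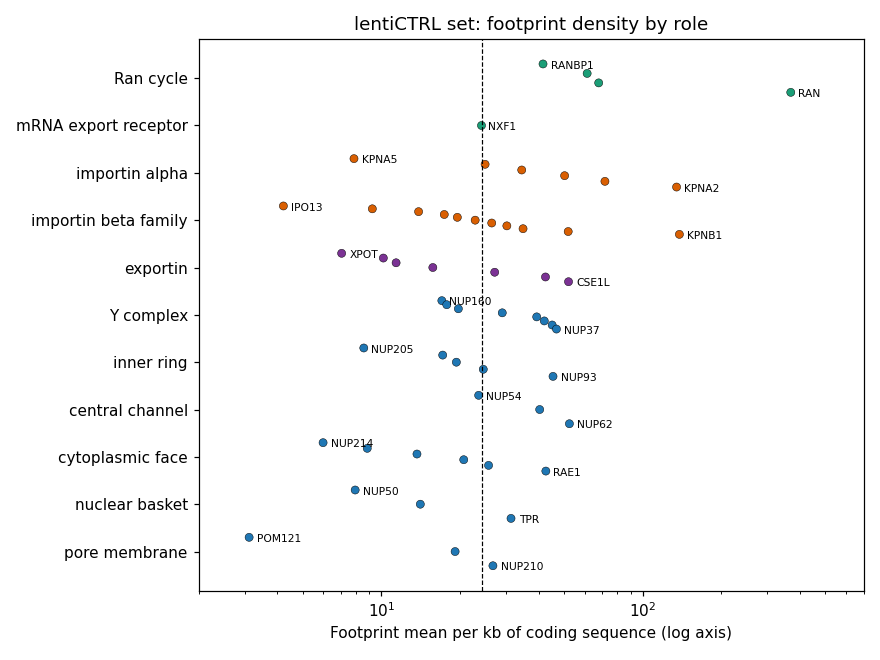
Authors' mean footprint count per kb of coding sequence (log axis) in the lentiCTRL set, 1 point per member, in rows by role with the highest and lowest member of each row named; the dashed line is the median of all genes. RAN stands alone at 369 per kb, KPNB1 and KPNA2 follow at 138 and 135, and the ranges within a row run from 2.22-fold in the central channel to 32.7-fold in the importin beta family.

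Features of the transcripts and proteins were set beside these values. An ATG upstream of the annotated start was present in the 5′ UTR of 17 of 57 members (29.8%), and in 34.7% of all genes. Members with an upstream ATG had a median of -0.76 relative to the median gene, and those without one a median of 0.04. Over all genes the corresponding medians were -0.69 and 0.28. Median 5′ UTR length was 303 nt for members with an upstream ATG and 90 nt for those without, and the parts of length and of the ATG were not separated. XPO6 had 5 upstream ATGs in a 5′ UTR of 597 nt, XPOT had 2 in 487 nt, IPO13 had 2 in 651 nt and IPO7 had 1 in 112 nt. RCC1, by contrast, had 4 upstream ATGs in 303 nt and one of the higher yields, 7.61. KPNA4 and RANBP2, both among the 5 lowest, had none, nor did any of the 5 highest members.

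The 5′ UTR GC content of the members had a median of 66.0%, beside 68.5% for all genes. Its Spearman correlation with footprints per RNA was -0.26 over 56 members and -0.19 over 8410 genes.

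FG dipeptides, counted in the translated coding sequences, numbered at least 5 in 12 members, led by NUP214 with 44, NUP98 with 40, NUP153 with 29, POM121 with 24 and RANBP2 with 22. These 12 had a median of -0.51 relative to the median gene, and the nucleoporins with fewer had a median of 0.15. NUP50 and the pore membrane proteins NUP210 and NDC1 were at the limit, with 5 each, and the count was not scaled to protein length. The 12 included several of the longest coding sequences of the group, and length was not separated from FG content. Against genes of like coding length NUP214 lay at 0.53, NUP98 at 0.19, NUP153 at 0.15, RANBP2 at 0.01 and POM121 at -1.35. The medians of the 12 and of the other nucleoporins were not computed with that reference.

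Other genes of nuclear transport were read for comparison from a list of 40, of which 34 were listed in the lentiCTRL set. Their median lay 0.16 above the median gene, with 21 of 34 above. SEC13, a further subunit of the Y complex, had 9.10 footprints per 100 RNA counts, and NUTF2, which brings Ran back into the nucleus, had 10.8. The export adaptor ALYREF had 10.6. AHCTF1 (ELYS), which anchors the Y complex on chromatin, had 1.49, and the mRNA export factors MCM3AP and ZC3H11A had 0.987 and 0.561. Of these genes only ZC3H11A was as low as XPOT, from a footprint mean of 17.0, below the limit of 20 used for ranking. In the complemented set ZC3H11A had 0.842, beside 0.720 for XPOT.

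The next comparison set the complemented set against the lentiCTRL set, member by member. It asks whether footprints per RNA of the transport machinery differed between IAA-treated cells that received DDX3X or DDX3Y by lentivirus and a pool of lentiCTRL cells with and without IAA. Each set was centred on its median over the 7386 genes listed in both. The sets differed in lentivirus, treatment make-up and normalization at once, and these cannot be told apart. Footprints per RNA of the 54 shared members correlated between the sets with a Pearson r of 0.96, as they did over all 7386 shared genes (0.96).

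The median difference of the members, complemented minus lentiCTRL set, was -0.09 on the log2 scale, with quartiles at -0.23 and -0.01. The median of all shared genes was -0.02. Members varied less than genes in general, with an SD of 0.24 beside 0.33. Their footprint means were also higher, with a lentiCTRL median of 62.5 beside 34.1 for all genes, so their counting error was smaller. The part of depth in the lower SD was not tested. Footprints per RNA were higher by more than 0.25 in 6 of 54 members (11.1%), beside 23.1% of all shared genes, and lower by more than 0.25 in 9 (16.7%), beside 18.5%. Above 0 were 12 of 54 members, beside 47.3% of all genes. The 95% counting interval lay above 0 for 7 members and below 0 for 12, beside 18.0% and 18.1% of all genes. At the limit of 0.25, the share of members that were lower was thus near that of all genes, and the share that were higher was below it. A gene with a lentiCTRL footprint mean under 20 was shared only if its mean reached 20 in the complemented set. In the lentiCTRL set 52 of 57 members had a footprint mean above 20, beside 6325 of 8657 genes. This selection bore more on all genes than on the members, and its part in these shares was not tested. With footprint means above 100 in both sets, the median difference of 13 members was 0.035. The difference was then centred on the genes kept, which raised each of these members by the same amount. CSE1L, the member at that median, lay at -0.08 with the main centring.

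The 6 members that were higher are named with both values. XPO6 went from 0.919 to 1.56 footprints per 100 RNA counts, a difference of 0.52 after centring (0.23 to 0.82). KPNA4 went from 2.03 to 3.31, a difference of 0.47 (0.16 to 0.77). SEH1L went from 4.21 to 6.55, a difference of 0.40 (0.13 to 0.66), and NUP98 from 2.57 to 3.87, a difference of 0.35 (0.19 to 0.51). IPO8, which carries Argonaute proteins, went from 2.48 to 3.70, a difference of 0.34 (0.05 to 0.62). IPO13, below the footprint mean needed for ranking, had the widest difference, 0.75 (0.24 to 1.26), on means of 12.2 and 21.6. With a lentiCTRL mean that low, IPO13 could be compared only because its mean passed 20, where the complemented set began. Its difference is thus selected to be high, and KPNA5, NUP50 and POM121, with like lentiCTRL means, were not listed there.

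All 6 had a lower RNA mean in the complemented set relative to the shared genes. A lower RNA mean raises footprints per RNA, so this is partly built into the choice of these members. The share with lower RNA among all genes beyond the same limit was not computed. For SEH1L the RNA differed by -0.60 and the footprints by -0.20 on the log2 scale, and for NUP98 by -0.58 and -0.24, so in both the footprints were also lower, by less than the RNA. For KPNA4 the RNA differed by -0.43 and the footprints by 0.03. For XPO6 the values were -0.36 and 0.16, and for IPO8 -0.20 and 0.13. Of the 6, only IPO13 differed more in footprints, by 0.46, than in RNA, by -0.28.

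The members that were lower included RCC1, from 7.61 to 6.06 footprints per 100 RNA counts, a difference of -0.57 (-0.79 to -0.34). NUP85 went from 7.02 to 6.03, a difference of -0.46 (-0.69 to -0.23). NUP155 differed by -0.37 (-0.60 to -0.15) and NUP43 by -0.36 (-0.67 to -0.05). The RNA of NUP85, NUP155 and NUP43 differed by -0.01, 0.01 and -0.02 on the log2 scale, and the footprints by -0.48, -0.37 and -0.39. RAE1 differed by -0.27 with a counting interval that reached 0.01, and NUP205, NUP93, KPNA2 and NUP188 by between -0.26 and -0.25.

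By role, all 5 inner ring members lay below 0, with a median of -0.26. In the Y complex 6 of 8 did, with a median of -0.24, the exceptions being NUP98 and SEH1L. All 4 Ran cycle genes lay below 0, with a median of -0.14, among them RAN at -0.20 (-0.33 to -0.07). Over all shared genes 52.7% lay below 0, a share open to the same selection by footprint mean. The importin beta family had a median of -0.08 and the exportins one of -0.02. The counting interval included 0 for several receptors and nucleoporins named by rule. KPNB1 differed by -0.09 (-0.19 to 0.01), TPR by -0.02 (-0.15 to 0.12), XPO1 by -0.02 (-0.18 to 0.15), CSE1L by -0.08 (-0.24 to 0.08) and NXF1 by -0.07 (-0.37 to 0.22). RANBP2 differed by 0.12 (-0.08 to 0.32). XPOT, the lowest in both sets, differed by 0.07 (-0.37 to 0.50), an interval that its footprint means of 20.4 and 22.4 leave wide. Of the 30 other transport genes listed in the complemented set, 5 were higher by more than 0.25 and 6 lower, with a median of -0.04. Over all shared genes 23.1% were higher and 18.5% lower by that limit.

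**Figure D4:**
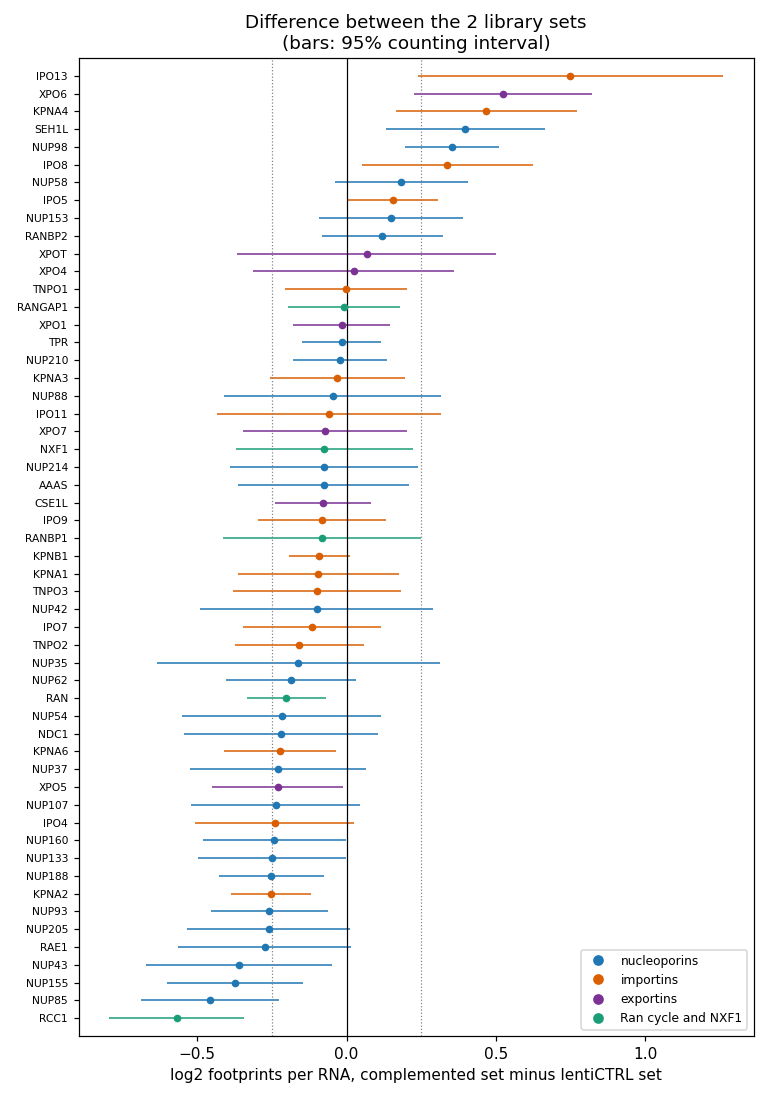
Difference in log2 footprints per RNA, complemented set minus lentiCTRL set, for the 54 members listed in both, ordered by value; bars show the 95% counting interval and dotted lines mark 0.25 in each direction. IPO13 is highest at 0.75 and RCC1 lowest at -0.57, and 39 members lie between the dotted lines.

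The difference between the sets was read against 5′ UTR GC content, since DDX3X acts on structured leaders. The Spearman correlation was 0.37 over 53 members and 0.37 over 7186 genes, given as a description over genes that share the same libraries. When all shared genes were divided into 5 bins by GC content, the median difference was -0.14 in the lowest bin and 0.22 in the highest. The 6 higher members had a median GC content of 71.4% (65.3 to 75.7), and the 9 lower members 61.8% (42.6 to 81.0). The 6 include IPO13, at 66.1%, whose difference is selected to be high. RCC1, the lowest, had the lowest GC content of all members, 42.6%. NUP210 and NUP188, with the highest GC contents, 85.4% and 81.0%, differed by -0.02 and -0.25, so the members did not all follow the relation seen over genes.

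**Figure D5:**
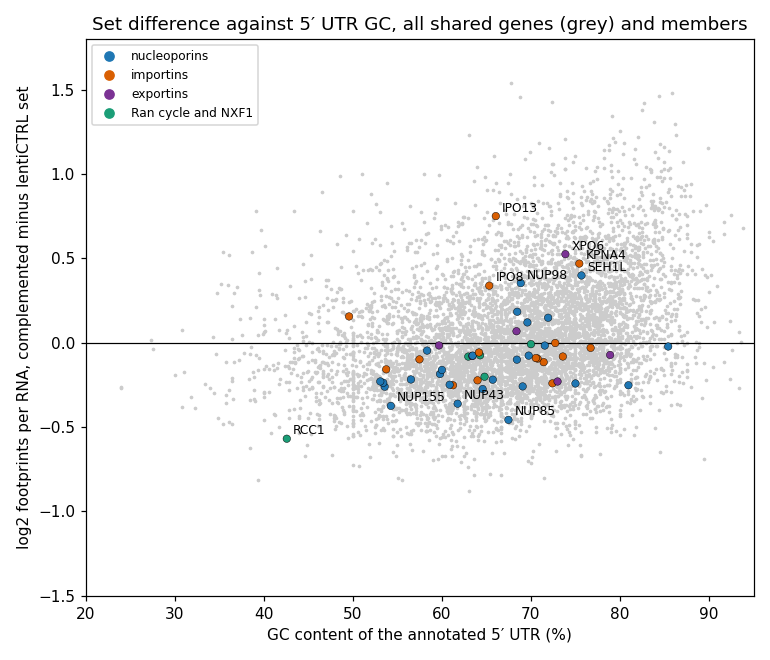
Difference in log2 footprints per RNA between the sets against GC content of the annotated 5′ UTR in percent, for all shared genes (grey) and members, coloured by class; 3 shared genes lie outside the plotted range. XPO6, KPNA4 and SEH1L stand at high GC content and above 0, RCC1 at 42.6% and -0.57, and the cloud of all genes rises from left to right.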

How the data were processed

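Ribosome profiling and RNA-seq of the 16 libraries were processed by the authors, who per the labels used cutadapt, Bowtie2 and STAR 2.6.0a with the hg38 build. Footprint and RNA counts over coding sequences were normalized by the authors with DESeq2, and the deposited means, 1 per gene, assay and set, pool 4 libraries. The deposited columns of fold changes, adjusted p-values and gene classes hold the authors' own comparisons and were not used. The sets were normalized separately.

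From these means, footprints per 100 RNA counts were computed in Python 3.11.15 (pandas 2.3.3, scipy 1.17.1) and centred on the median gene. Counting intervals (95%) took each mean as 4 Poisson libraries, without biological spread, and were checked on simulated counts. Coding sequences, 5′ UTRs and FG dipeptides came from GENCODE v44 canonical transcripts (GRCh38). GC content needed a 5′ UTR of at least 10 nt. Members were ranked above a footprint mean of 20. Genes named were the highest and lowest of each role, the 5 highest and lowest by footprints per RNA and by set difference, and 8 central genes; others within a role were added for completeness after their values were seen. Members and lists were chosen with earlier results of these data known.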

Additional observations from a re-analysis of the deposited data

How the results depend on the processing

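With pooled means only, no replicate could be left out, no paired analysis was possible because the means carry no values per replicate, and low footprint means set the precision. The complemented set moved the members' median RNA density per kb, relative to all genes, from -0.09 to -0.29 on the log2 scale, and that of footprints from 0.03 to -0.27. The members' median footprints per RNA, -0.12, was -0.52 with footprint means above 100, 0.12 when centred on summed means and 0.36 against genes of like coding length. The number of members above the median gene, 25 of 57, was 16 of 54 in the complemented set, 16 of 52 with footprint means above 20, 2 of 13 above 100, 34 of 57 when centred on summed means and 39 of 57 against genes of like coding length. With a limit on the footprint mean, the centre was the median of the genes kept, so each member kept moved down by the same amount. In the complemented set the fold range of footprint density was 3.29 in the Y complex, 1.91 in the nuclear basket, 1.71 in the pore membrane, 5.19 in importin alpha and 22.0 in the importin beta family; the listed members differ for the nuclear basket, pore membrane and importin alpha. With footprint means above 100 in both sets, the median set difference was 0.035 in place of -0.09, 2 of 13 members were higher by over 0.25 and 0 lower, and CSE1L, KPNB1, NUP210, RANGAP1, TPR and XPO1 changed sign. Here the centre was the median of the genes kept, which raised each of the 13 members by the same amount. The sign changes thus come from the changed centre. In all, 18 of 54 were lower when centred on the whole tables, a choice made, like that of coding length, after the data were seen. That centring lowers the difference of every gene by the same amount. The shares over all genes were not computed for it or for footprint means above 100, so these counts have no reference.

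In footprints per RNA relative to the median gene, 11 of 54 members changed sign in the complemented set, 8 of 52 with footprint means above 20, 5 of 13 above 100, 1 of 57 with a pseudocount of 1, 9 of 57 when centred on summed means and 16 of 57 against genes of like coding length. Those whose counting interval had lain off the median gene are named here. Centred on summed means, IPO9 was 0.066, NUP210 0.10 and TPR 0.043. With footprint means above 20, RAN was -0.023, and above 100 RAN was -0.42, KPNA2 -0.13 and RANGAP1 -0.29. Summed means and these limits each moved every member kept by the same amount, so their sign changes come from the changed centre. In the complemented set RAN was -0.12; the other members that changed sign there were CSE1L, IPO4, NUP54, NUP88, NUP107, NUP133, NUP155, NUP160, NUP188 and SEH1L. Against genes of like coding length, IPO9 was 0.42, NUP153 0.15, NUP205 0.47, NUP210 0.88, NUP214 0.53, NUP98 0.19, RAN -0.52, RANBP2 0.011, TNPO1 0.16, TPR 0.83 and XPO7 0.060. No set difference whose counting interval lay off 0 changed sign under the alternatives in which that member was listed.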
